A study of Rattus norvegicus with 8 samples.

Results

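The fibrillar collagens of the rat heart described here are Col1a1 (ENSRNOG00000003897), Col1a2 (ENSRNOG00000011292) and Col3a1 (ENSRNOG00000003357). They were taken as 3 fixed Ensembl gene IDs out of the 21549 listed for every library, and all 3 had enough counts to be among the 14214 genes tested. RNA was sequenced from bulk heart tissue of Sprague Dawley rats, an outbred laboratory strain, aged 3 months. The chronic hypoxia group had 4 rats, and the normoxia group had 4 control rats, each with a library numbered 1 to 4. How low the oxygen was, how long it lasted, whether the rats were male or female and which part of the heart was taken are not stated in the labels.

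Fibrillar collagens are the rope-like proteins that carry tension in the connective tissue between heart muscle cells, and in the heart they are made mainly by fibroblasts. Type I collagen, the stiff major fibre, is usually a triple helix of a pair of alpha-1 chains from Col1a1 and a single alpha-2 chain from Col1a2. Type III collagen, a finer and more compliant fibre laid down beside type I, is built from alpha-1 chains of Col3a1 alone. Deposition of both types is a hallmark of cardiac fibrosis, and the comparison of the 2 groups asks whether their transcripts differed in hearts exposed to chronic hypoxia.

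The sequence below lies in front of Col1a2, the gene with the lowest level of the 3. It is shown as context for that gene and was not part of any measurement. The 100 bases come from the RefSeq promoter table on build GRCr8, plus strand, chr4:33518307-33518406, and lie 250 to 151 bases before the annotated start.

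Col1a2: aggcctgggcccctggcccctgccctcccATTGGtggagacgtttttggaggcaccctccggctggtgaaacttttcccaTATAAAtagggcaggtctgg

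Capitals mark the matches to 2 motifs searched on both strands, which do not overlap each other. TATAAA, the core of a TATA box, lies at bases 81 to 86 of the window, and 5.43% of 33469 promoter windows at the same distance hold it. CCAAT lies on the opposite strand, as ATTGG at bases 30 to 34, and 14.5% of the windows hold it. These are matches of letters and not evidence of a site in use.

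Library totals ran from 26229304 to 32160710 counts. On the second principal component of log2 CPM over the tested genes, which held 20.9% of the variance, hypoxia libraries 1 and 2 lay at 37.9 and 29.8 and hypoxia libraries 3 and 4 at −29.3 and −27.9, with the normoxia libraries between −8.10 and 1.01. This component set the 2 pairs of hypoxia libraries apart without marking either pair as the unusual one. The results for the collagens are also given without hypoxia libraries 1 and 2, and no fit left out 3 and 4. Hypoxia libraries 1 and 2 had the lowest hypoxic levels of all 3 collagens. Leaving them out therefore raises the hypoxic mean of each gene by construction. Hypoxic libraries held shorter transcripts on average, with a mean gene-model length per count of 2220 to 2375 bp in hypoxia and 2596 to 2628 bp in normoxia, and the collagen genes have long models of 5825 bp (Col1a1), 4475 bp (Col1a2) and 4765 bp (Col3a1).

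Col3a1 was the most abundant of the 3 genes per unit of length in all 8 libraries, Col1a1 came next, and the gene listed as Col1a2 was far below both. On the FPKM scale, which divides counts by gene-model length and library total, Col3a1 averaged 158 ± 55.4 in hypoxia and 271 ± 57.0 in normoxia (mean ± SD, n = 4 each, as for all such values). Col1a1 averaged 42.7 ± 16.1 FPKM in hypoxia and 69.0 ± 10.1 FPKM in normoxia. Col1a2 averaged 1.54 ± 0.628 FPKM in hypoxia and 2.14 ± 0.437 FPKM in normoxia. Within each library the order Col3a1, Col1a1, Col1a2 held, and the ranges of the 3 genes over the 8 libraries did not overlap.

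Ranked by FPKM among all 21549 genes, Col3a1 stood at places 251 to 594 in the hypoxia libraries and 143 to 246 in the normoxia libraries. Col1a1 stood at places 875 to 2319 in hypoxia and 593 to 839 in normoxia. Col1a2 stood at places 9747 to 11726 in hypoxia and 9650 to 10575 in normoxia. The 3 genes together took 0.0518% to 0.134% of all counts in hypoxia and 0.142% to 0.206% in normoxia.

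None of the 3 collagen genes passed the test between the groups, although all 3 fold changes pointed to lower levels in hypoxia. Over all 14214 genes, edgeR's quasi-likelihood test with Benjamini-Hochberg adjustment called 33.0% at an adjusted p under 0.05, and 15.3% were called lower in hypoxia. The collagens contributed 0 of 3 to either count, and 1 of the 3, Col3a1, had an unadjusted p under 0.05, as had 6305 of all tested genes. Their median log2 fold change, hypoxia over normoxia, was −0.52, against 0.01 over all genes tested. In bulk tissue, fewer collagen-producing cells and less collagen RNA per cell cannot be told apart.

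Col3a1, the type III chain, came closest to the threshold. In hypoxia libraries 1 to 4 it stood at 756, 436, 1008 and 983 CPM after TMM scaling (CPM are counts scaled to a common library size, and TMM is the trimmed mean of M values between libraries), and in normoxia libraries 1 to 4 at 1357, 1470, 991 and 1036 CPM. Hypoxia libraries 1, 2 and 4 lay below every normoxic heart, and hypoxia library 3 overlapped the low end of the normoxic range. The log2 fold change was −0.61 (SE 0.25, 95% interval −1.16 to −0.06), a level 0.656 times that of normoxia, with an edgeR adjusted p of 0.0819. Of all tested genes, 8.22% had a lower log2 fold change.

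The Col3a1 call depended on the scaling and the tool. With libraries scaled by their totals alone its log2 fold change came to −0.78 with an edgeR adjusted p of 0.0369, where 27.2% of all genes were called lower. DESeq2 gave −0.61 with an adjusted p of 0.0350 and called 17.0% of genes lower. Limma on the deposited FPKM values, and so on library totals, gave −0.83 for log2(FPKM + 1) and −0.84 for log2(FPKM + 0.1). The adjusted p were 0.0374 and 0.0379, where 31.4% and 31.2% of genes were called lower. Limma-voom on the TMM-scaled counts gave −0.66 with an adjusted p of 0.0726, over the threshold. Under 2 other scalings of the counts, RLE and upper quartile, edgeR gave adjusted p of 0.0832 and 0.0920. Scaling by totals moved the median of all genes by −0.17 on the log2 scale, the same direction as the move of Col3a1 from its TMM value. Without hypoxia libraries 1 and 2 Col3a1 had a log2 fold change of −0.30 (edgeR SE 0.16, adjusted p = 0.178), and without hypoxia library 2 alone it was −0.415.

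Col1a1, the alpha-1 chain of type I collagen, followed the same course with a wider overlap. Its TMM-scaled levels were 236, 137, 328 and 352 CPM in hypoxia libraries 1 to 4, and 411, 429, 328 and 343 CPM in normoxia libraries 1 to 4. Hypoxia libraries 1 and 2 lay below every normoxic heart, while 3 and 4 lay inside the normoxic range. The log2 fold change was −0.52 (SE 0.25, 95% interval −1.08 to 0.03), with an edgeR adjusted p of 0.134. Its estimate also moved with the scaling. With library totals alone it was −0.69, with an edgeR adjusted p of 0.0569. The 2 limma fits on FPKM gave −0.76 and −0.78, with adjusted p of 0.0503 and 0.0516, just over the threshold. Under TMM the edgeR log2 fold change was −0.32 without hypoxia library 2. It was −0.16 without both low libraries (SE 0.12, edgeR adjusted p = 0.309).

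In the RefSeq gene table (build GRCr8, used for neighbours only) Col1a1 overlaps Sgca, a sarcoglycan gene of striated muscle, whereas Col1a2 and Col3a1 overlap no listed gene. The handling of reads in such an overlap is not given in the sources used here.

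Col1a2, the alpha-2 chain of type I collagen, had few counts, and its groups overlapped most. It had 156, 119, 243 and 288 counts in hypoxia libraries 1 to 4, and 327, 336, 227 and 238 counts in normoxia libraries 1 to 4. After TMM scaling these were 5.47, 4.12, 9.32 and 10.3 CPM in hypoxia and 9.75, 11.02, 7.40 and 7.79 CPM in normoxia. Hypoxia libraries 1 and 2 were the lowest of all 8, and hypoxia libraries 3 and 4 lay above normoxia libraries 3 and 4. The log2 fold change was −0.30 (SE 0.27, 95% interval −0.90 to 0.30), with an edgeR adjusted p of 0.419. Single libraries moved the Col1a2 estimate to −0.19 without hypoxia library 1, −0.11 without hypoxia library 2, −0.52 without hypoxia library 4 and −0.19 without normoxia library 2. Without hypoxia libraries 1 and 2 its sign turned, to 0.12 (SE 0.17, edgeR adjusted p = 0.606).

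The counts of Col1a2 set how precisely each library measured it. The exact 95% Poisson interval of its FPKM was 0.685 to 0.990 in hypoxia library 2 and 1.83 to 2.32 in hypoxia library 4. In normoxia the lowest library, 3, had an interval of 1.54 to 2.01 FPKM and the highest, 2, one of 2.39 to 2.96 FPKM. Such intervals cover counting error only.

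**Figure D1:**
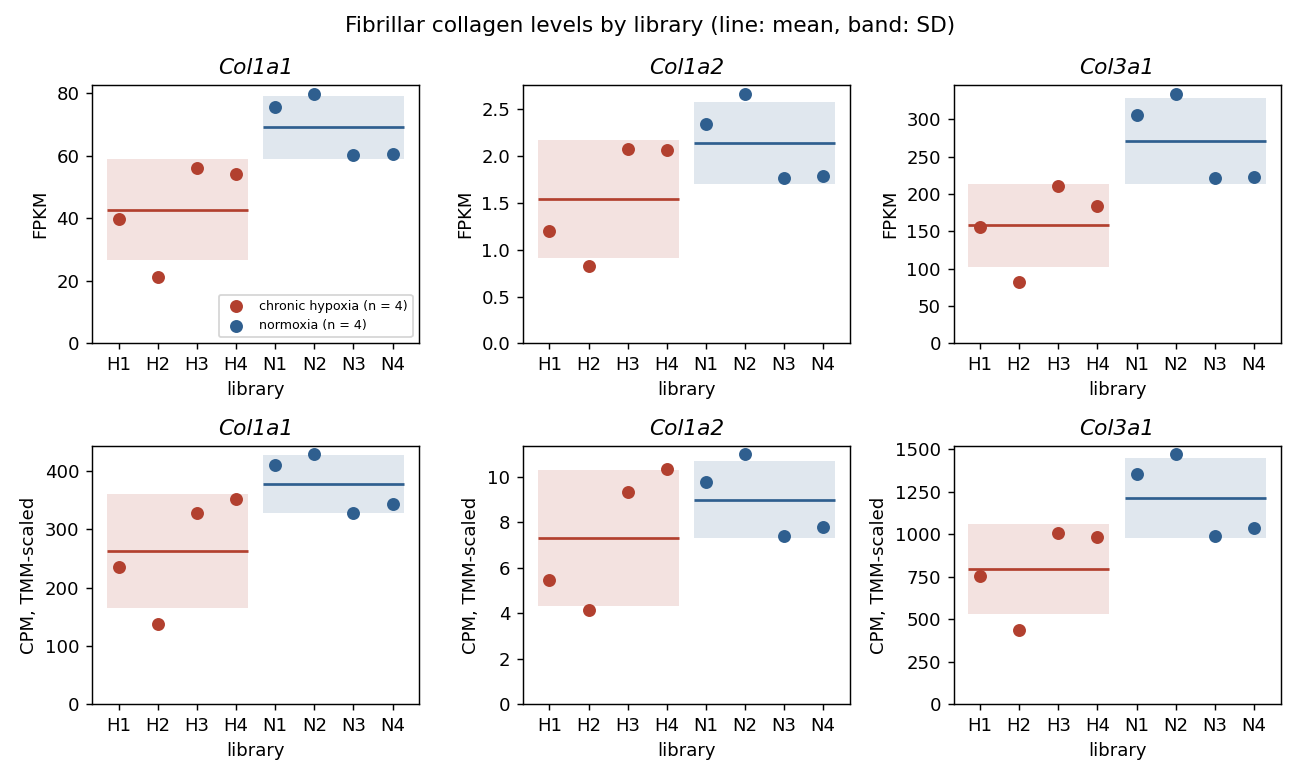
Levels of Col1a1, Col1a2 and Col3a1 in each library, as FPKM (upper row) and as TMM-scaled CPM (lower row), with chronic hypoxia libraries H1 to H4 in red and normoxia libraries N1 to N4 in blue; lines are group means and bands SD (n = 4 each). In FPKM every hypoxic heart lies below every normoxic heart for Col1a1 and Col3a1, while after TMM scaling the groups overlap for all 3 genes, and H2 is the lowest library in each panel.

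Whether the groups overlapped also turned on the scaling. On the deposited FPKM scale, Col3a1 was at most 210 FPKM in hypoxia and at least 222 FPKM in normoxia, and Col1a1 was at most 56.0 FPKM in hypoxia and at least 60.1 FPKM in normoxia. All 4 hypoxic hearts were thus below all 4 normoxic hearts for 2 of the 3 collagens, and the same held for 27.6% of all tested genes. After TMM scaling it held for 0 of the 3, against 17.1% of all tested genes.

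Gene-model length moved with the fold changes across the whole data set, and the collagens lie among the long genes. Among the 1422 tested genes with the longest models, which include Col1a1, the median log2 fold change was −0.23 and 37.1% of genes were called lower in hypoxia. Among the next 1421, which include Col1a2 and Col3a1, the median was −0.14 and 24.9% were called lower. Within its own length class, 18.8% of genes had a lower log2 fold change than Col1a1, 30.8% a lower one than Col1a2 and 10.1% a lower one than Col3a1. After removal of the trend with length in every library, the log2 fold changes were −0.33 for Col1a1, −0.17 for Col1a2 and −0.46 for Col3a1, with edgeR adjusted p of 0.332, 0.661 and 0.173.

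**Figure D2:**
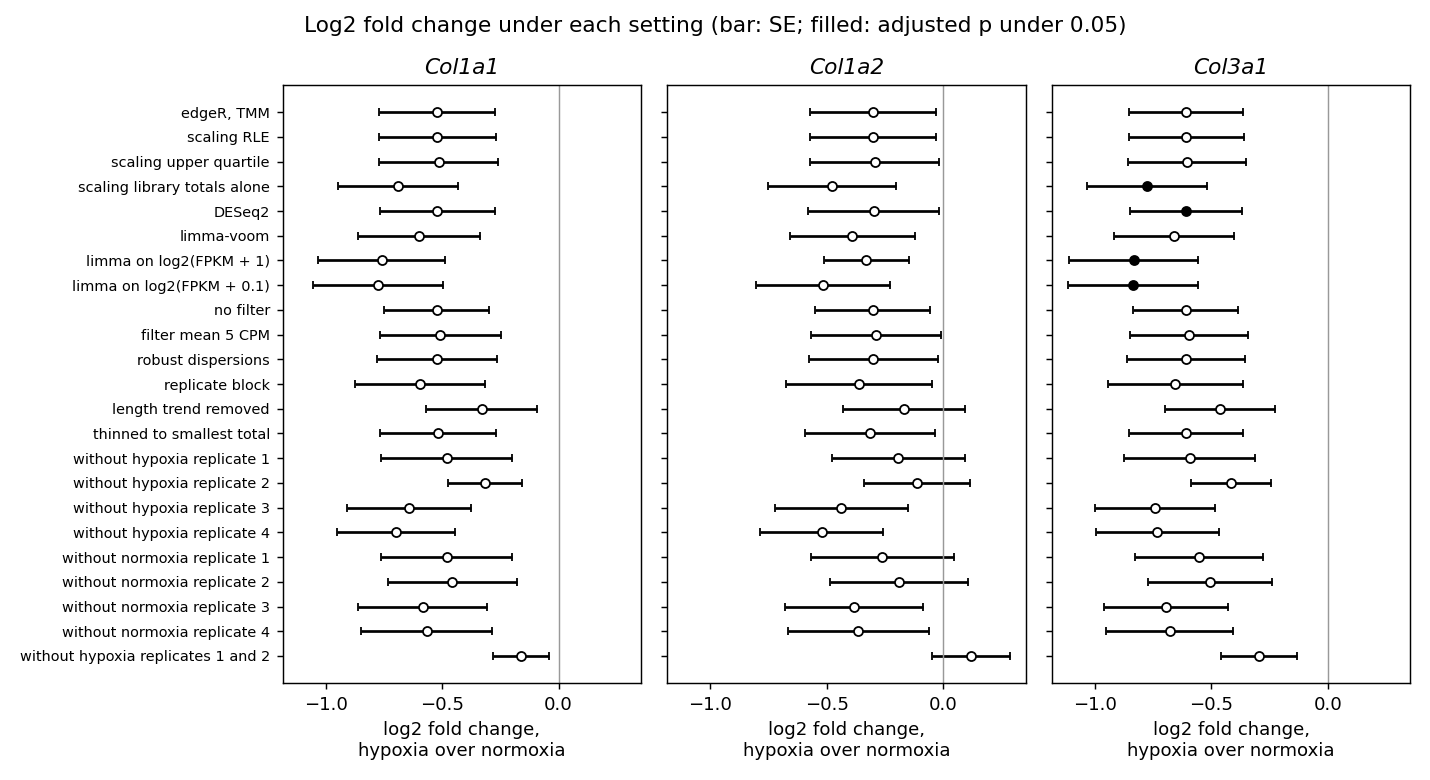
Log2 fold change of each collagen gene, hypoxia over normoxia, under edgeR with TMM scaling and each alternative setting; points are estimates, bars SE, and filled points have an adjusted p under 0.05. The filled points are all for Col3a1, under library totals alone, DESeq2 and the 2 limma fits on FPKM, and the estimate for Col1a2 without hypoxia replicates 1 and 2 is the only one above 0.

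The hypoxic hearts differed from one another more than the normoxic hearts in all 3 genes. The highest hypoxic heart exceeded the lowest 2.56-fold for Col1a1, 2.51-fold for Col1a2 and 2.31-fold for Col3a1 in TMM-scaled CPM, against 1.31-fold, 1.49-fold and 1.48-fold among the normoxic hearts. The SD of log2 CPM in hypoxia was 0.62, 0.62 and 0.56 for Col1a1, Col1a2 and Col3a1, where the median gene had 0.23. In normoxia the SD was 0.19, 0.27 and 0.28, where the median gene had 0.13. Between 87.9% and 90.3% of tested genes had a smaller SD than these genes in hypoxia, and between 69.8% and 83.0% in normoxia. These are descriptions of 4 hearts per group, and the difference in spread was not tested.

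The 3 genes moved together from heart to heart. Hypoxia library 2 was the lowest of all 8 for each of them, at −1.15, −0.91 and −1.13 log2 units from the gene's own mean for Col1a1, Col1a2 and Col3a1, and hypoxia library 1 was the next lowest for each. Among the normoxic hearts libraries 1 and 2 were higher than 3 and 4 for all 3 genes. Hypoxia libraries 3 and 4 lay at 0.11 and 0.21 above the mean for Col1a1, 0.26 and 0.41 above it for Col1a2, and 0.08 and 0.05 above it for Col3a1.

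**Figure D3:**
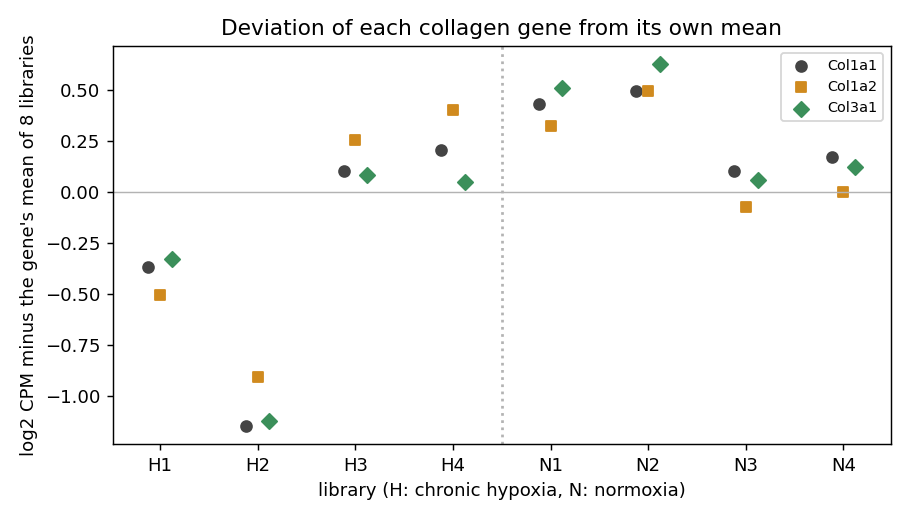
Log2 CPM (TMM-scaled) of each collagen gene in each library minus that gene's mean over the 8 libraries, with chronic hypoxia libraries on the left and normoxia libraries on the right of the dotted line. The 3 genes share the low values of H1 and H2 and the high values of N1 and N2, and Col1a2 lies above the other genes in H3 and H4.

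This likeness was measured as the root mean square difference between 2 genes' log2 CPM, each centred on its own mean over the 8 libraries, among 12658 other genes of at least 1 CPM. Col3a1 was the closest of all of them to Col1a1, and Col1a1 the closest to Col3a1, at a distance of 0.084 log2 units where the median gene lay 0.552 from Col1a1. Col1a2 ranked at place 4 for Col1a1 and place 6 for Col3a1, at distances of 0.163 and 0.201. Seen from Col1a2, Col1a1 ranked at place 3 and Col3a1 at place 10, so the row with few counts still varied with the other 2 collagens.

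After each group's own mean was removed, which takes out the difference between hypoxia and normoxia, Col1a1 and Col3a1 were again each other's closest gene, at 0.079 log2 units. Col1a1 was then at place 2 for Col1a2, Col3a1 at place 8, and Col1a2 at place 7 for Col1a1 and place 12 for Col3a1. The pattern within groups was not particular to the collagens or to genes that fell. ENSRNOG00000012110, of mean 1.02 CPM, was called higher in hypoxia (log2 fold change 1.57, edgeR adjusted p = 0.00880). It was at place 2 for Col1a1, place 4 for Col3a1 and place 5 for Col1a2.

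The next 2 genes have no name in the sources used here and were found before group means were removed. On that scale ENSRNOG00000008664 was the next closest to both Col1a1 and Col3a1, at 0.119 and 0.118 log2 units. It had 0.797 to 1.80 CPM in hypoxia and 1.57 to 2.21 CPM in normoxia. ENSRNOG00000016758 was the closest to Col1a2 on the same scale, at 0.139 log2 units. It had 6.55 to 14.9 CPM in hypoxia and 12.01 to 15.8 CPM in normoxia. Neither passed the edgeR test, with log2 fold changes of −0.51 (adjusted p = 0.166) and −0.31 (adjusted p = 0.339).

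Ratios between the chains were compared next, since library scaling cancels within a library. The FPKM ratio of Col3a1 to Col1a1 was 3.91, 3.88, 3.75 and 3.41 in hypoxia libraries 1 to 4, and 4.03, 4.19, 3.69 and 3.69 in normoxia libraries 1 to 4. This ratio of 2 transcripts, which does not measure the proteins, thus stayed between 3.41 and 4.19 in all 8 libraries, and the groups overlapped. Its mean was 3.74 ± 0.227 in hypoxia and 3.90 ± 0.251 in normoxia, a difference of −0.06 on the log2 scale (n = 4 each, two-sided exact permutation p = 0.371, adjusted 0.371 over 4 measures). Single libraries moved this small difference: it was −0.0171 without hypoxia library 4 and −0.0254 without normoxia library 2. It was −0.12 without hypoxia libraries 1 and 2, and −0.11 with the length trend removed.

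The FPKM ratio of Col1a1 to Col1a2 was 33.2, 25.6, 27.0 and 26.2 in hypoxia libraries 1 to 4, and 32.4, 29.9, 34.0 and 33.9 in normoxia libraries 1 to 4. Hypoxia libraries 2, 3 and 4 lay below every normoxic heart, and hypoxia library 1 lay inside the normoxic range. Its mean was 28.0 ± 3.51 in hypoxia and 32.6 ± 1.91 in normoxia, a log2 difference of −0.22 (n = 4 each, two-sided exact permutation p = 0.0857, adjusted 0.152). The exact 95% binomial intervals, which follow from the few Col1a2 counts, ran from 21.3 to 31.0 in hypoxia library 2 and from 23.3 to 29.5 in hypoxia library 4, against 29.8 to 39.0 in normoxia library 3 and 29.8 to 38.7 in normoxia library 4. The interval of hypoxia library 2 overlapped that of every normoxia library. That of hypoxia library 4 overlapped neither of these normoxia intervals. It did overlap those of normoxia library 1 (29.02 to 36.25) and normoxia library 2 (26.85 to 33.45).

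The FPKM ratio of Col3a1 to Col1a2 was 130, 99.2, 102 and 89.3 in hypoxia libraries 1 to 4, and 131, 125, 126 and 125 in normoxia libraries 1 to 4. The normoxic hearts were alike in this ratio, and hypoxia libraries 2, 3 and 4 lay below all of them. Its mean was 105 ± 17.4 in hypoxia and 127 ± 2.72 in normoxia, a log2 difference of −0.28 (n = 4 each, two-sided exact permutation p = 0.114, adjusted 0.152). The exact 95% binomial intervals were 82.9 to 119.9, 89.5 to 115.7 and 79.5 to 100.7 in hypoxia libraries 2, 3 and 4. Normoxia library 4 had 109.9 to 142.5, which the intervals of hypoxia libraries 2 and 3 overlapped. That of hypoxia library 4 overlapped no normoxia interval. The normoxic values lay closer together than these intervals are wide.

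**Figure D4:**
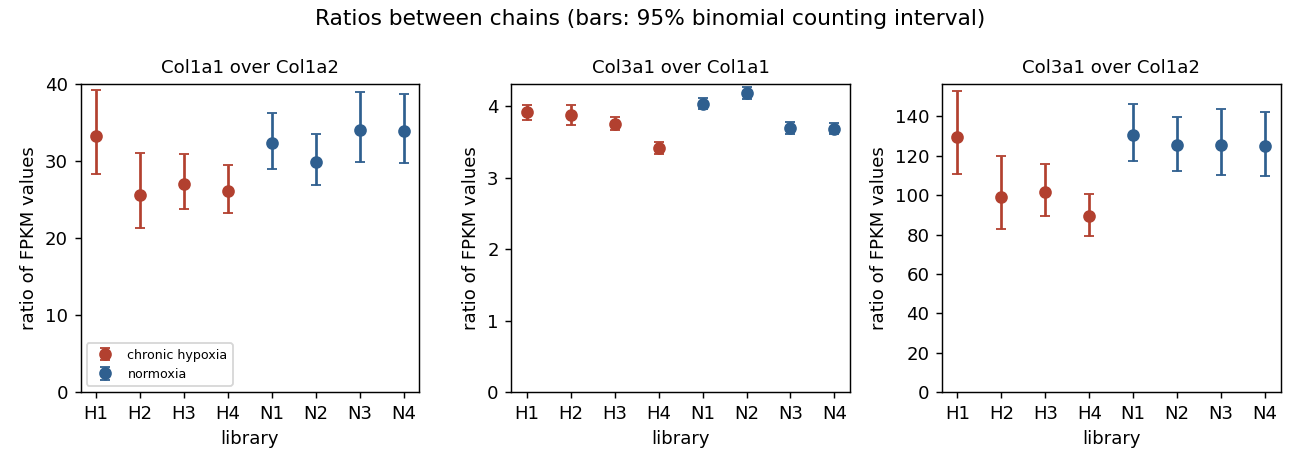
Ratios of FPKM values between the chains in each library, for chronic hypoxia (red) and normoxia (blue), with 95% exact binomial counting intervals. Col3a1 over Col1a1 stays between 3.41 and 4.19, and both ratios over Col1a2 are lower in H2, H3 and H4 than in any normoxia library, with intervals that are wide because Col1a2 had 119 to 336 counts.

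The Col1a1 to Col1a2 ratio of 25.6 to 34.0 in all 8 hearts stands beside a protein in which the alpha-1 and alpha-2 chains join in the same molecule. The name Col1a2 was given with the ID, and the gene table used here holds no Ensembl IDs against which to check it. Comparisons of the level of Col1a2 with the other genes therefore rest on that row as deposited.

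Taken as 1 quantity, the summed FPKM of the 3 genes was 197, 104, 268 and 241 in hypoxia libraries 1 to 4, and 383, 416, 284 and 286 in normoxia libraries 1 to 4. All 4 hypoxic hearts lay below all 4 normoxic hearts, as they did in FPKM for 27.6% of all tested genes taken singly. The means of the sum were 202 ± 71.9 in hypoxia and 342 ± 67.5 in normoxia. The log2 difference was −0.82 (n = 4 each, two-sided exact permutation p = 0.0286, the smallest this design can give), and the adjusted p over the 4 measures was 0.114. Divided by the TMM factors, the log2 difference was −0.65 with an exact permutation p of 0.0857, and the FPKM difference was −0.53 without hypoxia library 2 and −0.41 without hypoxia libraries 1 and 2. Col3a1 made up 76.7% to 79.2% of the sum in hypoxia and 78.2% to 80.2% in normoxia, so the sum largely follows that gene.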

How the data were processed

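The authors deposited a table of raw read counts per gene and a table of FPKM values for each of 8 rat heart libraries, 4 from chronic hypoxia and 4 from normoxia. RNA was isolated with Trizol, and a NEBNext Ultra RNA kit was used for the libraries, per the labels' protocols. Build rn6, HTSeq 0.6.0, HISAT2 2.1.0, Bowtie2 2.2.3 and bcl2fastq are named, without roles, per the submitters' processing notes. No source used here gives the annotation release, the strand setting or the treatment of multiply matching reads. Count divided by FPKM and by library total gave the same whole number of bases in every library (relative tolerance 0.001) in all 21301 genes with counts, so these lengths were used and FPKM holds no other scaling.

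Counts were fitted with edgeR 4.0.16 in R 4.3.3 (filterByExpr with a minimum count of 10, TMM scaling, glmQLFit and glmQLFTest with group as the only term), and p-values were adjusted over all 14214 tested genes by the Benjamini-Hochberg method. Log2 CPM used a prior count of 2. For ratios and the summed level, exact two-sided permutation tests used all 70 assignments, adjusted over 4 measures, with scipy 1.17.1 in Python 3.11.15. Alternatives used DESeq2 1.42.0 and limma 3.58.1. The edgeR and permutation code was tested on simulated data. The labels give 4 rats per group, and libraries were taken as separate animals.

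The 3 genes, the alternatives and the tests were chosen with earlier results of these data known. Genes named beyond them are those closest in pattern, by the rule of smallest root mean square difference. The removal of hypoxia libraries 1 and 2 was chosen after seeing the data. Of the 21549 IDs, 0 were found in the RefSeq gene table (GRCr8), so lists of collagen-processing enzymes and cell type markers, and the label heart, could not be examined. Of the 3 genes, Col1a2 has an entry in the promoter table, and Col1a1 and Col3a1 do not.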

Additional observations from a re-analysis of the deposited data

Results flagged for a closer look

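Among 20 sets of 4 libraries checked for a single value far from the rest (levels, ratios and the summed level, by group), 1 stood out: the Col3a1 to Col1a2 FPKM ratio of normoxia library 1, at 130.7 against 124.9 to 125.7 in the other normoxic hearts. Chance alone marks about 5% of such sets. Its binomial counting interval of 117 to 146 covers the other normoxic values, and without it the log2 difference between the groups was −0.27 in place of −0.28.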

How the results depend on the processing

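Of 22 alternatives per gene, Col1a1 kept a negative log2 fold change and an adjusted p over 0.05 in all 22. Its estimates ran from −0.78 to −0.16. Its adjusted p ran from 0.0503 (limma on log2(FPKM + 1)) to 0.332 (edgeR with the length trend removed). Col1a2 kept a negative estimate and an adjusted p over 0.05 in 21, and without hypoxia libraries 1 and 2 its estimate was 0.12. Col3a1 kept its direction in all 22 and passed the threshold in 4: library totals alone (−0.78), DESeq2 (−0.61), limma on log2(FPKM + 1) (−0.83) and on log2(FPKM + 0.1) (−0.84). Library totals moved the median of all genes by −0.17. They split the calls into 1426 higher and 3870 lower, against 2516 higher and 2177 lower under TMM. The 2 limma fits on FPKM, which also use library totals, had medians of −0.15 and −0.18 over all genes, with 3704 and 3688 called lower. DESeq2 had a median of 0.01. Limma-voom on the TMM-scaled counts did not call Col3a1 (adjusted p = 0.0726). What moved the Col3a1 call in DESeq2 and the 2 limma fits on FPKM was not tested. Leaving out each library gave −0.70 to −0.32 for Col1a1, −0.52 to −0.11 for Col1a2 and −0.74 to −0.415 for Col3a1, with adjusted p of 0.0654 to 0.261, 0.168 to 0.734 and 0.0524 to 0.193. For the ratios, raw counts and the replicate block return the main difference by construction, and for the summed level the block does. With these included, the ratios and the summed level kept their direction in all 13 alternatives each. Their p-values say little about stability, since the exact test cannot go below 0.0571 with 1 library left out or 0.133 without hypoxia libraries 1 and 2, and the paired form cannot reach 0.05 either. The number of genes called over the whole table ran from 3315 to 5982.

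In a fit with a replicate block, the log2 fold changes were −0.59, −0.36 and −0.65 for Col1a1, Col1a2 and Col3a1 (edgeR adjusted p of 0.154, 0.420 and 0.137) and 3841 genes were called in place of 4693. No pairing by number was detected. Same-number correlations of deviations across genes ran from −0.0847 to 0.0187, and 0 of 4 hypoxia libraries matched their own number best. With 4 hearts per group these values cannot exclude a pairing in the design. Of the 3 genes Col1a2 had the fewest counts, at 119 to 336 a library. Its edgeR SE of 0.27 was close to the 0.25 of Col1a1 and of Col3a1. With all libraries thinned at random to the smallest total, its log2 fold change was −0.31 (edgeR adjusted p = 0.417).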
